A study of Mus musculus with 24 samples.

Results

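Plat encodes tissue-type plasminogen activator (tPA), a secreted serine protease. It was followed in single mouse cells from the unfertilized egg to 12 h after sperm injection. The platform annotation gives the symbol Plat to 3 of the 41174 probes on the array, which carries 19532 named genes, and all 3 were kept. They are called here the bright probe (A_51_P301566), the second probe (A_52_P409833) and the dim probe (A_52_P405772), after their signal in the egg.

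The series holds 24 arrays with 1 cell each: 3 oocytes arrested at metaphase II (MII), which stand for 0 h, and 21 1-cell embryos collected 2, 4, 6, 8, 10 or 12 h after a sperm was placed in the egg with a needle (intracytoplasmic sperm injection, ICSI). In that order of times the embryo groups hold 3, 4, 3, 3, 4 and 4 cells. Oocytes and embryos carry the strain label B6D2F1, a hybrid of inbred mouse strains, the sperm came from males of that strain aged 8 to 12 weeks (the labels give no other age), and no cell was given a drug, a deletion or a transgene according to the labels. The series describes the cells of a group as biological replicates, but no label ties a cell to an animal or a collection day, so every p-value measures the spread between these cells, and the groups hold no uninjected oocytes of later times.

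tPA cleaves plasminogen, an inactive precursor, into plasmin, a protease that dissolves fibrin and can act on other extracellular proteins. In growing mouse oocytes Plat mRNA is stored with a short poly(A) tail and hardly translated. When meiosis resumes, an element in its 3′ untranslated region directs cytoplasmic polyadenylation, the tail lengthens and the protein is made, and the message is later removed along with much of the maternal mRNA. Such a stored message is called dormant. The cells measured here start after meiotic maturation, and tail length was not measured, so the dormant state itself lies outside these data.

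Messenger RNA was captured from each cell on oligo-dT beads, which hold a message by its poly(A) tail, and was amplified before hybridization. A lower value can therefore mean fewer Plat molecules or shorter tails, and these cannot be told apart. Values are on a log2 intensity scale worked back from the deposited scores, where 1 unit is a doubling of signal, and groups are given as mean ± SD over cells. The scores had near-identical medians on all arrays (1.16 to 1.18), so a value is relative to the other probes of its array. A change in the total mRNA of a cell would not show, and percentages of the oocyte signal are not amounts per cell. The most common log2 intensity on the arrays, 6.81, is taken as the background level, and no background was subtracted. Differences are later or injected cells minus earlier cells or oocytes, with the standard error (SE) from 1 limma model of all 24 arrays, and a probe was called at a Benjamini-Hochberg adjusted p under 0.05 over all 41174 probes. The number of arrays limits the precision.

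Of 16 oocyte markers, 12 to 15 were more than 2 log2 units above background on every array, and their summed intensity was 187555 to 287487 in embryos and 236233 to 247235 in oocytes. Of 19 measured cumulus and granulosa cell markers, genes of the somatic cells that surround an egg, 1 to 6 passed that level in an embryo and 2 in each oocyte, and 0 were called against oocytes at any time. The summed cumulus signal was 9641 to 20104 in embryos and 9100 to 9236 in oocytes. In oocytes most of this sum came from Amh, with a mean of 12.46, against 12.68 to 13.37 in the embryo groups. Among 15 sperm and spermatid markers 4 to 7 passed in an embryo and 4 in each oocyte, with sums of 16448 to 35684 in embryos and 12070 to 17290 in oocytes. The brightest probe of Prm1, a protamine that packs sperm DNA, was higher in embryos as a whole (log2 difference 1.09, limma adjusted p 0.0238). So were this probe at 10 h (1.40, adjusted p 0.0242) and Oaz3, a spermatid gene, at 8 h (3.86, adjusted p 0.019). That Prm1 probe averaged 11.82 to 12.78 in the embryo groups and already 11.38 in oocytes, which hold no sperm. The other Prm1 probes averaged 7.49 and 7.06 over the arrays, near background, and the source of the Prm1 signal was not tested. Of 6 blood cell markers 1 to 3 passed in an embryo and 1 to 4 in an oocyte, with sums of 8544 to 20286 in embryos and 9240 to 14248 in oocytes. Most of the blood sum came from the brightest Hbb-bt probe, with a mean of 13.27 in oocytes and 13.28 to 13.99 in the embryo groups. The other Hbb-bt probes averaged 6.93 to 7.27 over the arrays. Embryo arrays had 5309 to 7531 distinct values, against 7580 to 7856 on oocyte arrays, which therefore carried finer intensity steps. Correlations across probes were 0.82 to 0.91 among embryos of 1 time and 0.93 to 0.94 among oocytes. The part of these differences in the Plat values was not tested, other than by 2 alternative settings based on the distinct values.

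The bright probe carried a very strong signal in the egg and lost most of it over the 12 h. The 3 oocytes had log2 intensities of 15.59, 15.29 and 15.67. Embryos at 2 h had 15.41, 13.68 and 15.07, and those at 4 h had 14.09, 13.94, 14.57 and 14.76. At 2 h, 1 embryo lay inside the range of the oocytes and 2 lay below it, and at 4 h all 4 lay below it.

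From 6 h the bright probe lay further below the oocytes. The 6 h embryos had 12.29, 12.69 and 13.93. The 8 h embryos had 13.36, 10.37 and 11.09. The 3 embryos of each of these times were below every oocyte, and at both times 1 embryo stood more than 1 unit above the other 2.

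The 10 h embryos had 12.46, 11.05, 10.17 and 12.15 on the bright probe. The 12 h embryos had 8.03, 10.26, 12.24 and 10.62. Every cell of both groups was below every oocyte, yet the 12 h embryo with the most signal was above 3 embryos at 10 h and 2 at 8 h, and below every embryo at 6 h. The lowest 12 h cell stayed 1.22 units above the background level.

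In all, 20 of 21 embryos were below all 3 oocytes on the bright probe. Over all probes, the share on which every embryo of a time was below every oocyte was 9.29%, 5.18%, 9.02%, 10.9%, 6.63% and 6.95% for the times from 2 h to 12 h, so a lack of overlap alone is common in groups of this size.

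**Figure D1:**
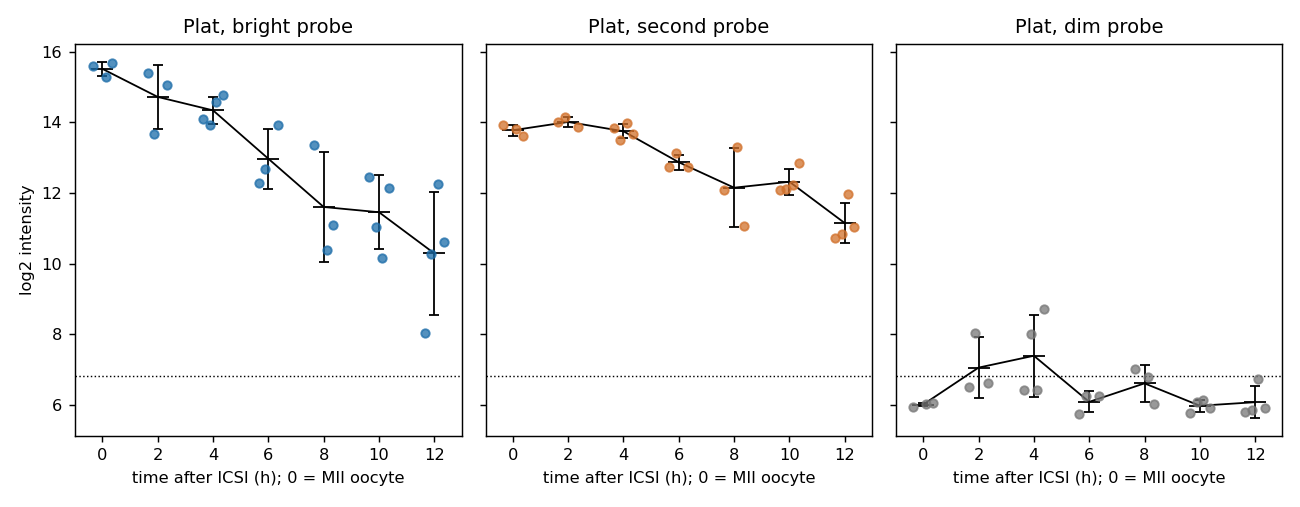
Log2 intensity of the 3 Plat probes (1 panel each) against time after injection in hours, with 1 point per cell, horizontal ticks and bars for group mean ± SD, and a dotted line at the background level of 6.81. The bright probe has means of 10.29 at 12 h and 15.52 at 0 h, the second probe 11.15 at 12 h and 13.78 at 0 h, and the dim probe stays near or below the line in most cells.

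Group means of the bright probe, from 0 h to 12 h in order, were 15.52 ± 0.20, 14.72 ± 0.92, 14.34 ± 0.39, 12.97 ± 0.86, 11.61 ± 1.56, 11.46 ± 1.05 and 10.29 ± 1.74, with 3, 3, 4, 3, 3, 4 and 4 cells. Read as geometric means of intensity, these times held 57.7%, 44.3%, 17.1%, 6.64%, 5.99% and 2.67% of the oocyte signal from 2 h to 12 h. The order of the 7 means followed time without exception.

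At 12 h the bright probe fell to a geometric mean intensity of 1252, against 46919 in oocytes. That is 37.5-fold lower, a log2 difference of −5.23 with an SE of 0.77 and a 95% interval of −6.84 to −3.62 (limma, adjusted p 0.00119). It ranked 9 from the lowest among the changes of all 41174 probes, of which 0.726% were called lower at 12 h. Plat came to notice through this fall in an earlier look at the same arrays, so the test is a description and not independent evidence. The oocyte values, up to 15.67, lie near the highest value on any array, 15.86, and whether these spots were saturated was not tested.

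The bright probe was also called lower at 8 h, by −3.91 (SE 0.83, limma adjusted p 0.0335, with 0.376% of probes called lower), and at 10 h, by −4.06 (SE 0.77, adjusted p 0.0194, also 0.376%). The mean of the 6 embryo groups was below the oocytes too (log2 difference −2.95, SE 0.63, limma adjusted p 0.0259, with 0.646% of probes called lower). Earlier differences did not pass: −0.79 at 2 h (SE 0.83, adjusted p 0.857), −1.18 at 4 h (SE 0.77, adjusted p 0.712) and −2.55 at 6 h (SE 0.83, adjusted p 0.33), where 0.0583%, 0.0486% and 0.0437% of probes were called lower. All of these share the same 3 oocytes.

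The 12 h call was kept when any 1 of the 24 cells was left out, with differences of −5.88 to −4.47. The 8 h call was lost without any 1 of the 3 oocytes (log2 differences −4.03 to −3.83, limma adjusted p 0.0926 to 0.101), without 8 h replicate c (−3.30, adjusted p 0.0917) and without 8 h replicate d (−3.65, adjusted p 0.0744). The 10 h call was lost without any 1 oocyte (−4.17 to −3.98, adjusted p 0.0572 to 0.0799), without 10 h replicate b (−3.92, adjusted p 0.0533) and without 10 h replicate c (−3.63, adjusted p 0.0641). The call over all embryos was lost without any 1 oocyte (−3.07 to −2.87, adjusted p 0.116 to 0.148).

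**Figure D2:**
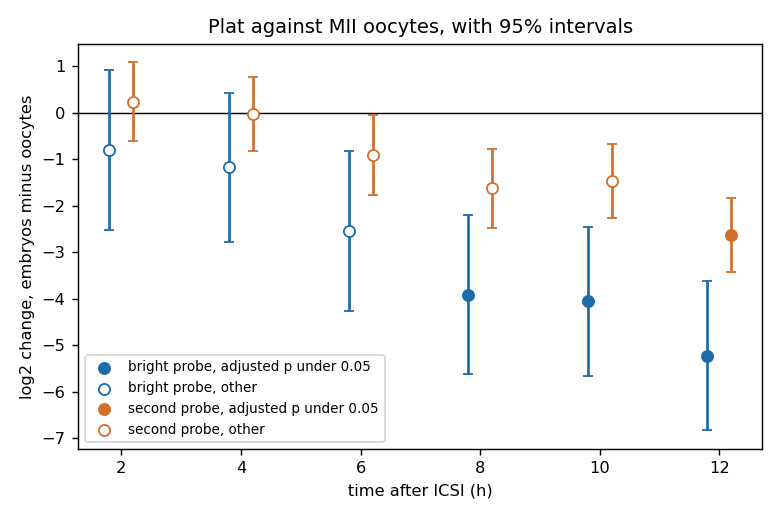
Log2 difference of embryos from MII oocytes for the bright and second Plat probes against time after injection in hours, with 95% intervals from the model; filled points have an adjusted p under 0.05. The bright probe reaches −5.23 and the second probe −2.63 at 12 h, the first time at which both are filled.

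Differences among embryos leave out the oocyte values, which enter only the model's estimate of the spread. Against 4 h embryos, the 12 h embryos were 16.6-fold lower on the bright probe (log2 difference −4.05, SE 0.72, limma adjusted p 0.00843, with 0.427% of probes called lower). Against 2 h embryos they were 21.6-fold lower (−4.43, SE 0.77, adjusted p 0.0103, with 0.386% called lower). No step between neighbouring times passed: the log2 difference was −0.38 for 4 h against 2 h (limma adjusted p 0.91), −1.37 for 6 h against 4 h (adjusted p 0.625), −1.37 for 8 h against 6 h (adjusted p 0.789), −0.15 for 10 h against 8 h (adjusted p 0.997) and −1.17 for 12 h against 10 h (adjusted p 0.688). With 1 cell left out these steps ranged over −0.90 to −0.035, −1.85 to −1.03, −2.24 to −0.75, −0.76 to 0.73 and −1.82 to −0.41 in the same order, without a call. Few probes were called lower at these steps, 0.0389%, 0.0146%, 0.00243%, 0.0826% and 0.0170% of all. Neighbours in the order of levels therefore do not differ beyond their spread, and the decline is seen over longer spans.

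Fitted as a line over the 21 embryos alone, the bright probe lost 0.46 log2 units per hour (slope −0.46, SE 0.06, limma adjusted p 0.00102). This slope ranked 4 from the lowest of 41174, of which 0.306% were called falling. The moderated F-test over the 7 times gave 12.9 (adjusted p 0.00433), with 0.894% of probes called.

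The second probe gave the same direction at 12 h, with a smaller estimate and means near those of the oocytes up to 4 h. The oocytes had 13.93, 13.80 and 13.61. The 2 h embryos had 14.00, 14.16 and 13.88, and the 4 h embryos had 13.84, 13.51, 13.98 and 13.68. Up to 4 h the embryos lay around the oocytes, with 3 of 7 above all of them and 1 below.

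After 4 h every embryo was below every oocyte on the second probe, and 15 of all 21 embryos were. The 6 h embryos had 12.75, 13.13 and 12.74, and the 8 h embryos had 12.09, 13.30 and 11.07. The 10 h embryos had 12.08, 12.11, 12.22 and 12.86, and the 12 h embryos had 10.73, 10.85, 11.97 and 11.05. The 4 cells at 12 h were below all cells of the other times, except that 1 of them exceeded 1 cell at 8 h, and the 8 h cells spread the most.

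Means of the second probe, from 0 h to 12 h in order, were 13.78 ± 0.16, 14.01 ± 0.14, 13.75 ± 0.20, 12.87 ± 0.22, 12.15 ± 1.11, 12.32 ± 0.37 and 11.15 ± 0.57. From 2 h on these were 118%, 98.0%, 53.4%, 32.4%, 36.4% and 16.2% of the oocyte signal. The order of levels was 2 h, 0 h, 4 h, 6 h, 10 h, 8 h and 12 h, and no neighbours in it differed beyond the test's threshold.

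At 12 h the second probe fell by 2.63 log2 units relative to oocytes (SE 0.38, 95% interval −3.43 to −1.83, limma adjusted p 0.00109). Relative to 2 h embryos the 12 h embryos were lower by −2.86 (limma adjusted p 0.000973) and relative to 4 h embryos by −2.60 (adjusted p 0.000998). Differences from oocytes were 0.24 at 2 h (adjusted p 0.939), −0.03 at 4 h (adjusted p 0.998), −0.91 at 6 h (adjusted p 0.564), −1.63 at 8 h (adjusted p 0.0649) and −1.46 at 10 h (adjusted p 0.107). Its slope over the embryos was −0.28 per hour (SE 0.03, adjusted p 0.000258) and its F over the 7 times 15.9 (adjusted p 0.00193). The 8 h and 10 h differences of this probe passed when 8 h replicate c was left out (−2.20 with adjusted p 0.00849, and −1.46 with adjusted p 0.0419), as did that of all embryos (−1.16, adjusted p 0.0365), and the 10 h difference passed without 8 h replicate d (adjusted p 0.0439). With array weights on all 24 cells they passed as well, at −1.56 for 8 h (adjusted p 0.0178), −1.50 for 10 h (adjusted p 0.00795) and −1.06 for all embryos (adjusted p 0.00808).

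From 6 h on the means of both the bright and second probes were below those of oocytes, while cells of 1 time often differed in their order on them. At 2 h and 4 h the differences from oocytes were −0.79 and −1.18 on the bright probe, and 0.24 and −0.03 on the second. Pearson's r of their log2 intensities was 0.83 over the 24 cells and 0.81 over the 21 embryos, cells that share an array for both probes, and 0.18 for the deviations from the group means. At 12 h the cell order of both probes was the same, with replicate a lowest and replicate c highest. At 8 h it was not: replicate c had the lowest bright value, 10.37, and the highest second value, 13.30.

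**Figure D3:**
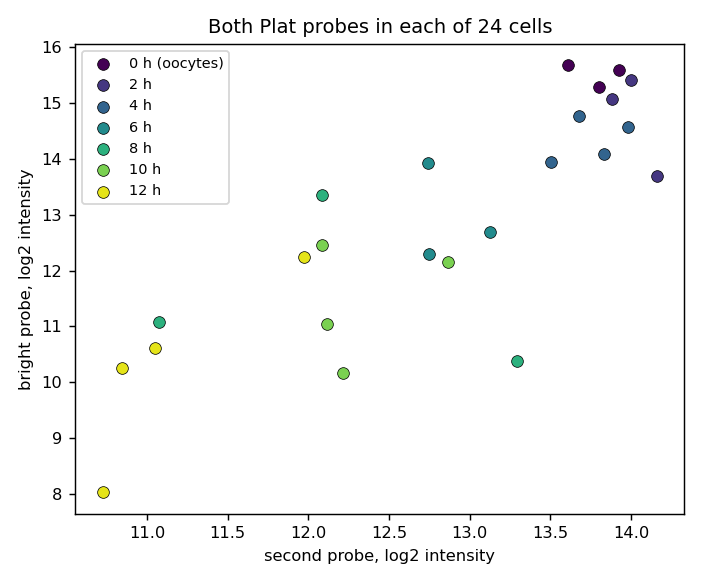
Log2 intensity of the bright Plat probe against that of the second probe, with 1 point per cell coloured by time after injection. Oocytes and the 2 h and 4 h embryos sit together at the upper right, the 12 h embryos lie toward the lower left, and 1 embryo at 8 h stands off the rest at 13.30 and 10.37.

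The estimated loss was larger on the bright probe than on the second. The difference between the probes within a cell, whose zero has no meaning of its own, averaged −0.86 ± 1.28 in 12 h embryos and 1.74 ± 0.30 in oocytes (SD, 4 and 3 cells). It lay between −2.70 and 0.27 in 12 h embryos and between 1.49 and 2.07 in oocytes, without overlap. The shift of −2.60 had an exact two-sided permutation p of 0.0571, the smallest that 4 against 3 cells can give. In order of time from 0 h, the mean gap was 1.74, 0.71, 0.59, 0.10, −0.55, −0.86 and −0.86. The sources used here do not give the position of either probe within the transcript, and the part of probe position or of a nonlinear signal in this gap was not tested.

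The dim probe carried no level of Plat that could be followed. It had 5.74 to 8.72 in embryos and 5.95 to 6.05 in the 3 oocytes, and only 1 cell at 2 h and 2 cells at 4 h were more than 1 unit above background. Its group means in order of time were 6.01, 7.06, 7.39, 6.09, 6.61, 5.98 and 6.08. Of the 21 embryos 14 were above all oocytes and 6 below. Neither the F over times (limma adjusted p 0.213) nor the difference of all embryos from oocytes (0.52, adjusted p 0.698) passed. The annotation ties this probe to another cDNA record than the other 2. At 2 h and 4 h its differences from oocytes, 1.05 and 1.38, had the opposite sign to those of the bright probe, and none of them was called.

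Other genes of the plasminogen system were mostly near background or showed no call beside Plat. Of 32 listed genes 28 were measured. At 12 h against 0 h, 1 was lower, 0 were higher, and the median log2 difference was 0.16, against 0.08 over all 19532 genes, of which 0.932% were called lower and 0.333% higher. No member was called higher at any time, and the same gene was the 1 lower member at 8 h, 10 h, 12 h and over all embryos. Over all genes, the share called lower from 2 h to 10 h was 0.0666%, 0.0410%, 0.0614%, 0.410% and 0.440%, and that called higher 0.0461%, 0.0256%, 0.0154%, 0.323% and 0.0973%. For all embryos together 0.727% of genes were called lower and 0.159% higher.

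That gene was Serpini1, which encodes neuroserpin, a serpin that inhibits tPA. It averaged 10.39 ± 1.36 in oocytes, and from 2 h to 12 h 7.46 ± 0.49, 7.61 ± 0.83, 8.06 ± 2.16, 6.90 ± 0.18, 6.82 ± 0.14 and 6.90 ± 0.13. From 8 h it was at the background level, which understates the size of its loss. The log2 difference was −3.49 at 8 h (SE 0.74, limma adjusted p 0.0332), −3.57 at 10 h (SE 0.69, adjusted p 0.0194) and −3.49 at 12 h (SE 0.69, adjusted p 0.0129), and over all embryos −3.10 (adjusted p 0.00955). The oocytes themselves spread widely on this gene, and the 12 h call was lost without 0 h replicate c (−3.22, adjusted p 0.0757), without 0 h replicate d (−2.99, adjusted p 0.0894) and in a fit of the 12 h and 0 h cells alone (adjusted p 0.0561).

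Among activators and the zymogen, signal was low for Plau and Plg. Plau, the urokinase-type activator, had group means of 6.88 to 7.45, and Plg, which encodes plasminogen, of 7.24 to 8.80. Klkb1, plasma prekallikrein, averaged 9.30 ± 0.62 at 12 h and 8.93 ± 0.35 in oocytes, without a call.

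Of the receptors and docking proteins, Plgrkt, a membrane receptor that binds plasminogen, averaged 8.62 ± 1.0 at 12 h and 8.62 ± 1.41 in oocytes, without a call. Anxa2, an annexin that binds both tPA and plasminogen at cell surfaces, averaged 10.63 ± 2.5 at 12 h and 11.12 ± 1.0 in oocytes (−0.49, limma adjusted p 0.966). Its partner S100a10 averaged 6.95 ± 0.12 at 12 h and 6.81 ± 0.06 in oocytes and exceeded background by 2 units only in the mean at 8 h, 9.34 ± 2.52. Lrp1, an endocytic receptor that clears tPA and its inhibitor complexes, averaged 11.50 ± 0.60 at 12 h and 11.95 ± 0.16 in oocytes (−0.45, adjusted p 0.95).

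Of the other inhibitors, Serpinf2, which encodes α2-antiplasmin, averaged 7.65 ± 0.15 at 12 h and 7.40 ± 0.11 in oocytes, with a mean of 8.97 ± 2.01 at 8 h. Serpinb6a, an intracellular serpin, averaged 8.17 ± 0.27 at 12 h and 8.01 ± 0.22 in oocytes, with its highest mean, 9.13 ± 0.80, at 4 h. Mmp2, a matrix metalloprotease of the extracellular proteolytic cascade, averaged 11.69 ± 0.37 at 12 h and 10.40 ± 0.32 in oocytes (1.28, limma adjusted p 0.502). Its lowest group mean was 8.59 ± 0.81, at 2 h. None of these 3 was called.

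A second set held 20 other mRNAs listed as recruited for translation by cytoplasmic polyadenylation in the maturing oocyte, of which 19 were measured. At 12 h 2 were lower than in oocytes and 0 higher, against 0.932% lower and 0.333% higher over all genes, and 17 were not called. The median log2 difference was −0.08, against 0.08 over all genes. The list was drawn up with results of these arrays known.

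The 2 called members were Mos and Bub1b. Mos, the kinase that holds the egg in metaphase II, averaged 9.54 ± 1.69 at 12 h and 15.20 ± 0.15 in oocytes (log2 difference −5.66, SE 0.77, limma adjusted p 0.00058), and was also lower at 8 h (−4.43, adjusted p 0.0181) and 10 h (−3.80, adjusted p 0.0248). Bub1b, which encodes the spindle checkpoint protein BubR1, averaged 10.48 ± 1.28 at 12 h and 15.30 ± 0.19 in oocytes (−4.82, SE 0.68, adjusted p 0.000765). Dcp1a, a cofactor of mRNA decapping, had −3.41 on its brighter probe (adjusted p 0.0798), where the 12 h cells spread to 12.09 ± 3.13, and −2.21 on its other probe (adjusted p 0.0352).

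Several members that were bright in the egg had nearly the same mean at 12 h. Orc6, a subunit of the origin recognition complex, averaged 15.54 ± 0.08 at 12 h and 15.56 ± 0.04 in oocytes. Spin1, spindlin, averaged 15.44 ± 0.15 at 12 h and 15.52 ± 0.17 in oocytes. Btg4, an adaptor that brings the CCR4-NOT deadenylase to maternal mRNAs, averaged 14.12 ± 0.26 at 12 h and 14.15 ± 0.14 in oocytes. Wee2, an oocyte kinase that inhibits Cdk1, averaged 13.06 ± 0.38 at 12 h and 13.01 ± 0.21 in oocytes, and Tpx2, a spindle assembly factor, 12.81 ± 0.74 at 12 h and 12.78 ± 0.18 in oocytes. None of these 5 was called. Orc6 and Spin1 lie near the highest value on any array, 15.86, where a loss could be hidden, and whether their spots were saturated was not tested.

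**Figure D4:**
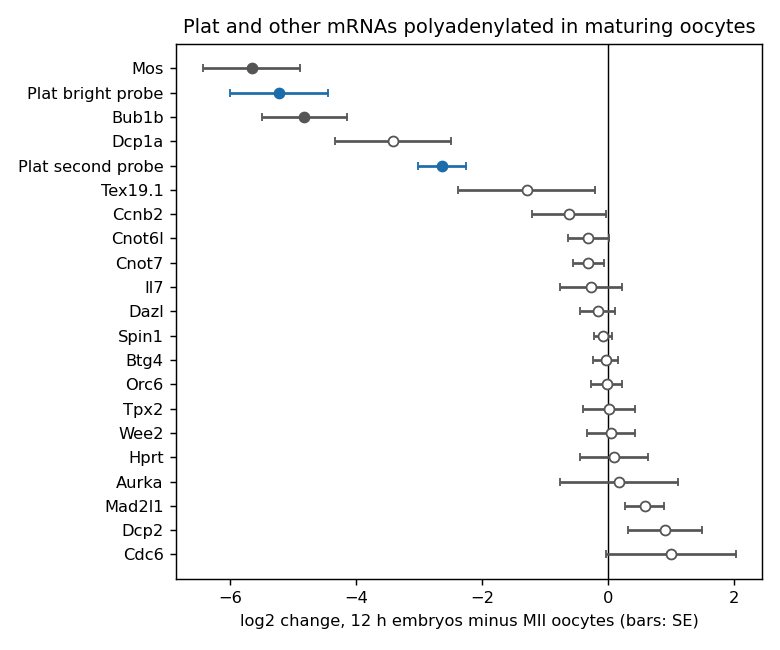
Log2 difference of 12 h embryos from MII oocytes, with SE bars, for the bright and second Plat probes (blue) and 19 other mRNAs listed as polyadenylated in maturing oocytes, each by its brightest probe; filled points have an adjusted p under 0.05. Mos, Bub1b and both Plat probes are filled, between −5.66 and −2.63, and most other members lie near 0.

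Of 30 listed factors of cytoplasmic polyadenylation, mRNA storage and deadenylation, 26 were measured, 2 were lower at 12 h and 0 higher (all genes 0.932% and 0.333%), and the median log2 difference was −0.36 (all genes 0.08). Lsm14b, an RNA-binding protein of stored maternal mRNA, averaged 14.24 ± 0.05 at 12 h and 15.03 ± 0.12 in oocytes (−0.78, SE 0.11, limma adjusted p 0.00113). Zar1, which binds and stores maternal mRNA in the oocyte, averaged 13.89 ± 0.57 at 12 h and 14.94 ± 0.15 in oocytes (−1.05, SE 0.25, adjusted p 0.0408), a call that was lost in 15 of 36 alternative settings. Among the 16 oocyte markers 3 were lower at 12 h, where 0.932% of all genes were, namely Gdf9, the oocyte growth factor (−1.71, adjusted p 0.000127), H1f8, the oocyte linker histone (−1.50, adjusted p 0.0212), and Zar1. The H1f8 call was lost in 8 of the 36 settings, among them without any 1 of the 3 oocytes (−1.60 to −1.44, limma adjusted p 0.0532 to 0.0987).

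Genes with the course most like Plat were sought among 7542 genes whose brightest probe averaged at least 2 units above background. By Pearson's r with the bright Plat probe over the 24 arrays, a measure that all changes shared by oocytes or late embryos raise, the 8 highest were Atf6b (0.88), Cep44 (0.88), Plxna1 (0.87), Gxylt1 (0.86), Cdc26 (0.86), Tspan9 (0.85), Tor1aip1 (0.85) and Zfp131 (0.85). By the mean absolute difference of the 7 group means, each set to its own 0 h mean, the 5 closest were Ttyh3 (0.34 log2 units), Atf6b (0.34), Smc3 (0.39), Samd8 (0.41) and Mos (0.43). Atf6b, a stress sensor of the endoplasmic reticulum, was the 1 gene on both lists.

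These genes were picked on the same arrays for a course like that of a declining probe, so their 12 h differences from oocytes are a description with no test. The log2 difference was −5.53 for Atf6b, −5.28 for Smc3, a cohesin subunit, −4.99 for Tspan9, a tetraspanin, and −4.96 for Samd8. It was −4.31 for Ttyh3, −4.18 for Gxylt1, −3.23 for Cep44, −2.78 for Tor1aip1, −2.65 for Plxna1, a plexin receptor, −2.53 for Cdc26, a subunit of the anaphase-promoting complex, and −1.61 for Zfp131. Atf6b, Samd8, Tspan9 and Cep44 averaged 7.74, 7.44, 7.05 and 7.76 at 12 h, near the background level, which understates their differences.

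**Figure D5:**
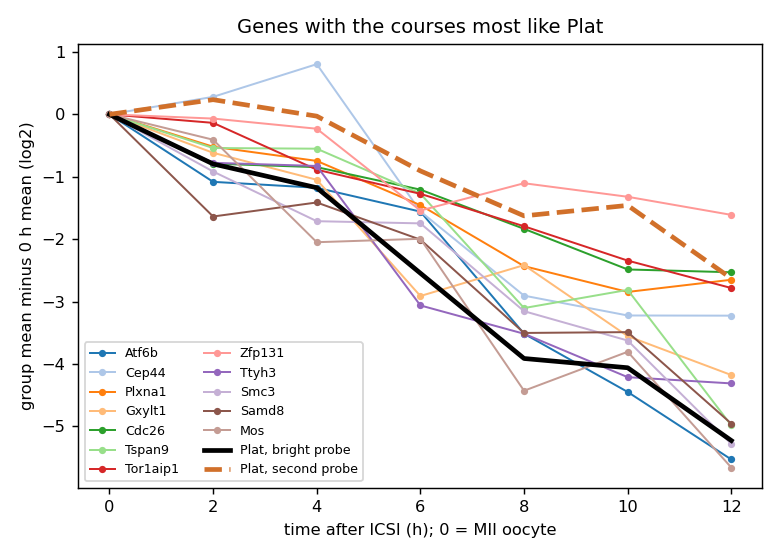
Group mean minus the gene's own 0 h mean, in log2 units, against time after injection in hours for the bright Plat probe (thick black line), the second Plat probe (dashed) and the 12 genes most like the bright probe by either measure. At 12 h the genes lie between −5.66 (Mos) and −1.61 (Zfp131), with the bright Plat probe at −5.23.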

How the data were processed

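mRNA of 24 single cells was measured in 7 groups, read from the titles. It was captured, per the labels' protocols, on oligo-dT beads and amplified by PCR; the protocol gives digoxigenin to the sample and biotin to a reference, while the label field reads biotin, and the sources used here do not say which channel was deposited. The deposited values are scores (0 to 4.57), and the only tool in the submitters' processing notes is limma, with no version; the sources used here give neither scanner nor background correction. The scores had near-identical column medians (1.16 to 1.18), and midpoints that quantile normalization leaves at tied probes (1597) followed the curvature of ln(ln(intensity)) divided by 0.225, with a largest residual of 0.0031 over the 28 widest. Midpoints were kept only within a preset range of curvature, so their fit to this form is partly set by that choice. They were turned back on that form into intensities of 51.4 to 59392, log2 5.68 to 15.86; the scale rests on the assumed form. Because the values were scores and not log2, tests ran on the recovered log2 intensity, and the scores were tested as an alternative.

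Symbols came from the platform annotation (1 symbol for 32664 probes, several for 45, none for 8465), checked by Entrez identifier against RefSeq GRCm38.p6 (32524 matched, 0 changed). A gene is read from the probe with the highest mean. limma 3.58.1 in R 4.3.3 (lmFit, eBayes with trend) fitted 7 group means over 41174 probes, with 22 comparisons, an F-test and a slope over the 21 embryos; adjustment was by Benjamini-Hochberg within each comparison. The recovery of the log2 scale was tested on simulated arrays (largest log2 error 0.000434). These arrays were built on the same ln(ln(intensity)) form, so they cannot check that form. Named genes were every Plat probe, the 8 and 5 genes most like Plat by 2 measures, called members of each list (at most 6), and plasminogen genes over 2 log2 units above background in any group mean; 5 uncalled members of the polyadenylation list and Dcp1a, Plau and Plg were added after their values were seen. Plat and the lists were chosen with earlier results of these data known. No 2 arrays were copies (smallest mean absolute difference 0.46). Alternatives were 36 other settings, each changing 1 choice: the scale, background, normalization, probe rule, filter, array weights, model and each cell left out.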

Additional observations from a re-analysis of the deposited data

Results flagged for a closer look

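The dim Plat probe of 12 h replicate c stood apart from the other 3 cells of its group, at a log2 intensity of 6.74, by Dixon's test at the 95% level. It lies below the background level of 6.81. Chance marks about 1 in 20 groups, and 9 groups of 4 cells were checked.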

How the results depend on the processing

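Of the 36 other settings, all kept Plat called lower at 12 h against 0 h, by the bright probe or the mean of all 3 probes (highest limma adjusted p 0.0471). The 12 h difference of the bright probe was −5.88 to −4.47 with 1 cell left out and −1.88 in deposited scores, and that of the mean of all 3 probes was −2.60. All that apply kept the second probe (34) and the slope and F of the bright probe or the mean (35). On deposited scores the bright probe had −1.32 at 8 h, −1.36 at 10 h and −0.99 over all embryos, none called. The mean of all 3 probes gave 0.16 at 2 h, 0.059 at 4 h, −1.65 at 8 h and −1.17 over all embryos, none called. Deviations of same-letter cells were weakly correlated (62 pairs, −0.11 to 0.18, median 0.014, against a median of −0.0088 for other letters). These correlations cannot show whether cells of a letter share an animal or day, and the main model did not pair by letter. With the replicate block the value over all embryos was −2.84 (limma adjusted p 0.0627), and the second probe at 4 h was 0.0146, against 0.0149 with array weights. A fit of only the groups compared gave −3.91 at 8 h (adjusted p 0.0921). In 2 settings chosen after seeing the data, leaving out the 6 arrays with under 6000 distinct values, which leaves 1 embryo at 8 h, assumed to vary like the other groups, gave −2.16 at 8 h, −3.63 at 10 h, −2.56 over all embryos and 0.38 for 8 h against 6 h, and distinct values as a covariate gave 0.079 at 2 h, −2.96 at 8 h, −3.45 at 10 h and −2.23 over all embryos, none called. With 1 cell left out, the bright probe ranged over −4.79 to −3.30 at 8 h, −4.40 to −3.63 at 10 h, −3.10 to −2.83 over all embryos and −0.76 to 0.73 for 10 h against 8 h, the second probe over −0.37 to 0.74 for 10 h against 8 h and −0.11 to 0.053 for 4 h against 0 h, and the plasminogen members lower at 12 h from 0 (without 0 h replicate c or d) to 1. The cause of these shifts was not tested. Signal near background limits the dim probe and the floor of late values.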
